A study of Mus musculus with 11 samples.

Results

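The 51 genes described here encode lysosomal proteins other than cathepsins, and they were taken by symbol from the deposited gene count table of 55401 genes. They comprise 21 hydrolases (11 glycosidases, 4 sulfatases, 4 lipid hydrolases and 2 peptidases), 4 activators and soluble cofactors, 8 membrane proteins, 2 sorting receptors and 16 subunits of the vacuolar proton pump. All 51 passed the filter on low counts, although Igf2r and Atp6v0d2 did so at very low levels. The libraries came from cells of mouse brain that were positive for CD11b and CD45, alive at sorting and collected as microglia, the resident macrophages of the brain. All mice carried NLGF, a knock-in of App with familial Alzheimer's disease mutations that leads to amyloid plaques, on a C57BL/6 background. The 4 groups, aged 9 to 10 months per the sample labels, were NLGF with no further change (3 libraries), Inpp5d+/-;NLGF (3, called Inpp5d-heterozygous below), Tyrobp-/-;NLGF (2, called Tyrobp-null) and Tyrobp-/-;Inpp5d+/-;NLGF (3, called double mutant). "Tyrobp-/- libraries" means the 5 of the last 2 groups. No group without NLGF was analysed here, so every value below is from mice that carry it. Tyrobp encodes DAP12, the signalling adaptor of TREM2 and other microglial receptors, and Inpp5d encodes SHIP1, an inositol phosphatase that restrains phosphoinositide signalling.

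Lysosomes break down material that microglia take up, including amyloid, and inherited loss of many of these genes causes lysosomal storage disease with neurodegeneration. Soluble hydrolases are tagged with mannose 6-phosphate, carried to the lysosome by sorting receptors, and work at the acidic pH that the vacuolar proton pump sets up. The pump has a membrane sector, V0, through which protons pass, and a cytosolic sector, V1, which hydrolyses ATP. Many lysosomal genes share a short promoter motif read by TFEB and related factors, known as the CLEAR element.

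Library totals ran from 29490567 to 66637052 counts. Tyrobp stood at 1952 to 2560 CPM (counts scaled to library size) in the 6 libraries labelled with intact Tyrobp and at 3.22 to 8.94 CPM in the 5 labelled Tyrobp-/-. Inpp5d overlapped between the Inpp5d+/- libraries (189.8 to 279.8 CPM) and the others (204.8 to 449 CPM). The summed level of 10 microglia markers was 36400 to 42700 CPM over all libraries. That of 12 neutrophil markers was 0.737 to 233.2 CPM in NLGF, 54.7 to 188 in the Inpp5d-heterozygous group, 4440 to 19200 in the Tyrobp-null group and 256 to 9900 in the double mutant. The sums of 8 monocyte markers were 15.6 to 71.9 CPM without Tyrobp loss and 114 to 1950 CPM with it. Neutrophils and monocytes also carry CD11b and CD45. Those of 7 border macrophage markers were 3.5 to 26.8 CPM and 25.5 to 125 CPM. The numbers in the sample titles, whose meaning is not given, are all lower in the Tyrobp-/- libraries than in the others, so anything that goes with them cannot be told apart from Tyrobp genotype.

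The lysosomal genes differed by orders of magnitude in level per transcript length, given as RPKM, the CPM divided by exon length in kilobases. Lgmn, an asparaginyl endopeptidase, was highest with a mean of 1804 RPKM over the 11 libraries (range 1489 to 2128). Cd68, a heavily glycosylated macrophage membrane protein, averaged 1358 RPKM (850 to 1940). Grn, the precursor of the granulins, averaged 1120 RPKM (850 to 1523). Laptm5, a lysosomal membrane protein of blood cells named after its values were seen, lay between them at 1279 RPKM (1021 to 1537). Within libraries, Lgmn was above Laptm5 and above Grn in 11 of 11 and above Cd68 in 7 of 11. Cd68 was above Laptm5 in 6 of 11 and above Grn in 10 of 11, and Laptm5 was above Grn in 10 of 11, so the order of Cd68 against Lgmn and Laptm5 changed between libraries. Hexa, the alpha subunit of beta-hexosaminidase, was the highest glycosidase at 842 RPKM, and Arsb, which removes sulfate from dermatan and chondroitin sulfate, the highest sulfatase at 40.6 RPKM. Asah1, acid ceramidase, led the lipid hydrolases at 292 RPKM. Among pump subunits the accessory gene Atp6ap1 (356 RPKM), the V1 gene Atp6v1g1 (278 RPKM) and the V0 gene Atp6v0b (264 RPKM) were highest. At the other end stood Sgsh (3.67 RPKM), Galc (1.97 RPKM, also named after its values were seen), Atp6v0d2 (1.57 RPKM) and Igf2r (0.0517 RPKM).

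**Figure D1:**
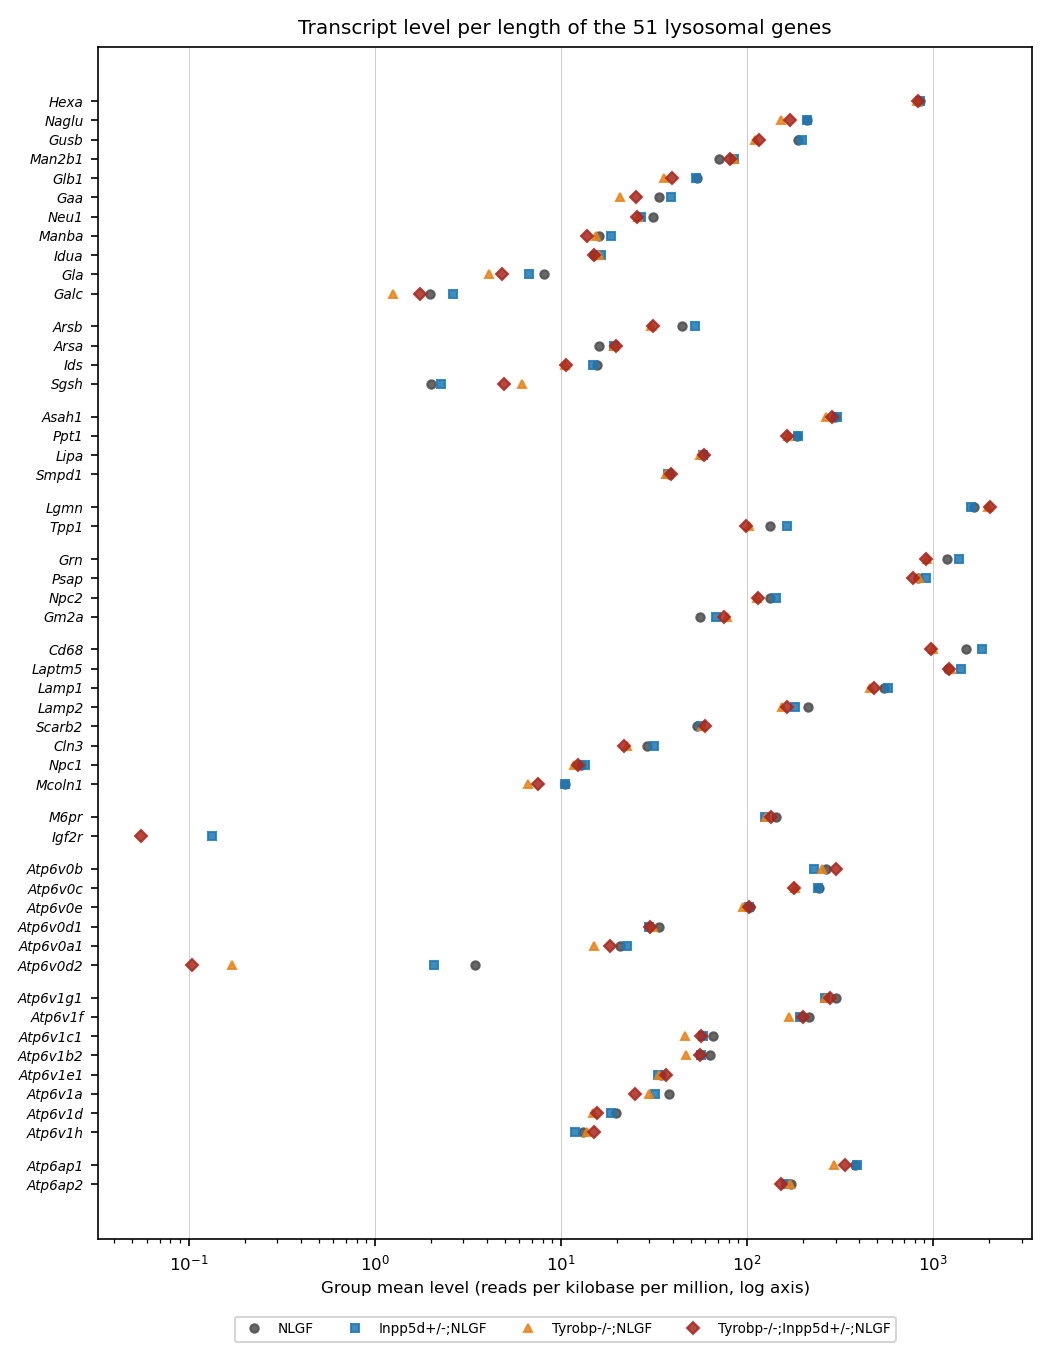
Group mean level of each lysosomal gene in RPKM (horizontal log axis), genes in rows by class and marker shape by genotype. Group means of 0 (Igf2r in NLGF and the Tyrobp-null group) are not drawn. Levels run from 1804 RPKM for Lgmn to 1.57 RPKM for Atp6v0d2 and 0.0517 RPKM for Igf2r (means over 11 libraries), and Atp6v0d2 and Sgsh show the widest gaps between genotypes among genes measured in every group.

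With Tyrobp lost, lysosomal transcripts fell more often than they rose, among them Gusb, Gaa, Cd68, Mcoln1 and Atp6v0c, while Sgsh and Lgmn rose. Across the 5 Tyrobp-/- and 6 other libraries, in a model with 1 term for each genotype (the additive model), 15 of the 51 genes fell and 2 rose. Of all 20390 genes tested 2.91% fell and 2.45% rose in that model, and of genes with a mean of at least 5 CPM 5.18% fell and 3.85% rose. The median log2 fold change was -0.20 for the 51 genes and 0.03 for all genes tested. Of the 21 hydrolases 7 fell and 2 rose, of the 4 activators and cofactors 2 fell, of the 8 membrane proteins 3 fell, and of the 16 pump subunits 3 fell. Neither sorting receptor was called. The class medians were -0.17 for hydrolases, -0.20 for activators and cofactors, -0.26 for membrane proteins and -0.16 for pump subunits. Of the 51 genes, 14 were lower in every Tyrobp-/- library than in every other library and 2 were higher in this way. The shares were 3.47% and 2.7% of all genes tested, and 5.07% and 3.9% of genes with a mean of at least 5 CPM. In these bulk libraries fewer cells of a type and less RNA per cell cannot be told apart.

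These counts moved with other measurements of the libraries. Neutrophil and monocyte markers were higher in the Tyrobp-/- libraries (10 of 12 and 3 of 8 markers rose), and their part in the lysosomal differences was not tested. With the mean neutrophil marker level as a covariate, 0 of the 51 genes were called, and the share of all genes called is not given here. That level (mean log2 CPM) was 1.16 to 8.75 in the Tyrobp-/- libraries and -4.44 to 1.34 in the others. It thus went largely with Tyrobp genotype, and this fit can hardly separate the 2. The 15 lower genes and 2 higher genes all kept their direction under that covariate, with a median log2 fold change of -0.50 against -0.52 for the 15, and with a median SE of 0.174 against 0.104. Without the 2 libraries with the most S100a8 (Tyrobp-null replicate 1 and double mutant replicate 2), 5 genes fell and 1 rose, and all 17 kept their direction. Of single libraries left out, Tyrobp-null replicate 1 or 2 brought the count of 17 to 9, NLGF replicate 1, Inpp5d-heterozygous replicate 1 or 3 or double mutant replicate 1 brought it to 10, and Inpp5d-heterozygous replicate 2 to 11. With no filter on low counts the count was 11. Gusb, Naglu, Gaa, Arsb, Sgsh and Cd68 were each called in 17 of 18 alternatives, all but the covariate. Lgmn, Mcoln1 and Atp6v0c were each called in 16 of 18. They were not called with the covariate or without the 2 libraries with the most S100a8.

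**Figure D2:**
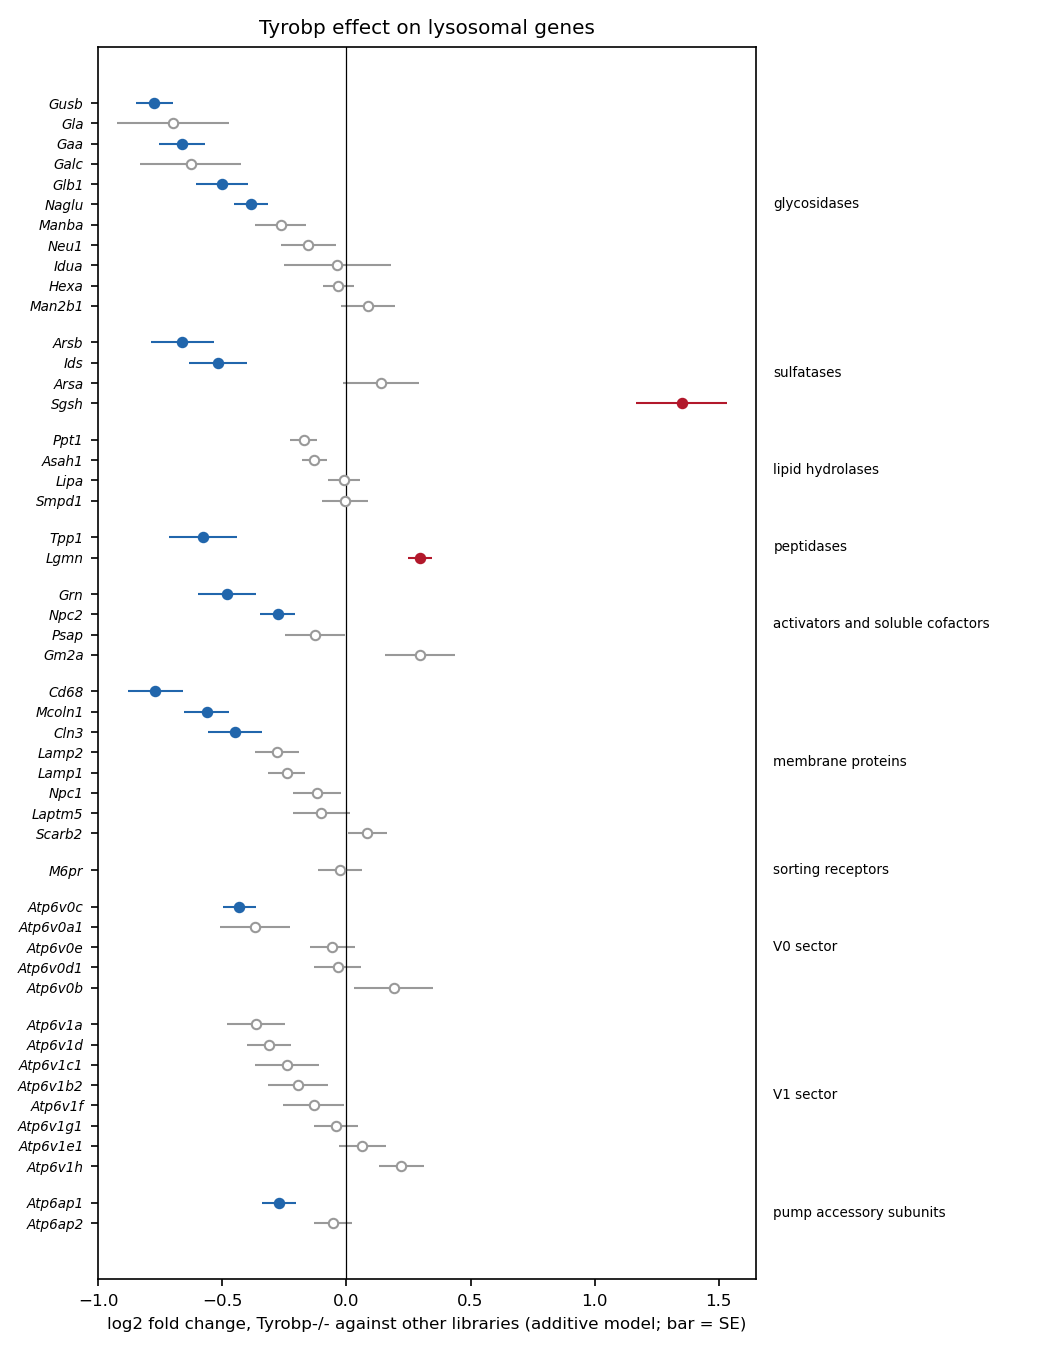
Log2 fold change of Tyrobp-/- against the other libraries in the additive model (horizontal axis; bars are SE) for 49 lysosomal genes grouped by class. Filled blue points fell, filled red points rose and open grey points did not pass an adjusted p of 0.05. Gusb and Cd68 (-0.77 each) lie farthest to the left and Sgsh (1.35) farthest to the right, and Atp6v0d2 (-4.30) and Igf2r are left out because of their scale.

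Sequences near the starts of these genes are shown because the motif TCACGTG, the core of the CLEAR element, recurs among them. The RefSeq promoter table (build GRCm38.p6) holds an entry for 43 of the 51 genes. Within the 250 bases before an annotated start, 13 of the 43 (30.2%) hold TCACGTG on either strand, against 968 of 27025 genes of the whole table (3.58%). Of the 14 genes with an entry that fell, 5 hold it. Both genes that rose hold it, as do 6 of the 27 that were not called. The motif was thus present among lower, higher and uncalled genes alike. For each of the 7 called genes that hold it, 1 stretch is printed 5′ to 3′ on the gene's strand with the motif in capitals (TCACGTG, its reverse complement CACGTGA, or the overlap of both, TCACGTGA), in a shorter stretch where the match overlaps an exon of the deposited gene models. Glb1 is at chr9:114400999-114401065 (plus strand), Gaa at chr11:119267792-119267858 (plus), Naglu at chr11:101070010-101070036 (plus), Sgsh at chr11:119355523-119355549 (minus), Lgmn at chr12:102439106-102439172 (minus), Cln3 at chr7:126583341-126583368 (minus) and Mcoln1 at chr8:3500463-3500490 (plus).
Glb1: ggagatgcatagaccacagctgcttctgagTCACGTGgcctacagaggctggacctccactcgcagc
Gaa: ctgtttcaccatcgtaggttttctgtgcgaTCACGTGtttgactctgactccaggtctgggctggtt
Naglu: aaccttcaggTCACGTGgcccgaggtc
Sgsh: gcctgccgtgCACGTGAccgtggggag
Lgmn: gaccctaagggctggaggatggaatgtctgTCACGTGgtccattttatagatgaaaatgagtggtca
Cln3: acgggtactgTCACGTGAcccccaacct
Mcoln1: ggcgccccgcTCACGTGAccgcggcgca
The Glb1 and Gaa stretches lie upstream of the deposited gene models and the Lgmn stretch lies in an intron, just before a RefSeq start inside the deposited gene model. Counted on either strand, Cln3 and Mcoln1 hold 3 matches each, of which the printed TCACGTGA covers 2 and the other is not shown, and the other 5 genes hold 1 each. A match is a description of these letters and not a measured binding site.

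Among glycosidases, which cleave sugars from glycoproteins, glycolipids and glycosaminoglycans, 4 of 11 fell and none rose. Of all genes tested 2.91% fell and 2.45% rose. Values per library are CPM in replicate order. Gusb, beta-glucuronidase (chr5:129989011-130003049, minus strand), stood at 907, 906 and 766 in NLGF, 837, 858 and 1024 in the Inpp5d-heterozygous group, 492.5 and 517 in the Tyrobp-null group, and 524, 496 and 566 in the double mutant. Every Tyrobp-/- library was below every other library, with no overlap. The difference was 1.71-fold (log2 -0.77, SE 0.0742, adjusted p = 0.000307). Gaa, the acid alpha-glucosidase that degrades glycogen (chr11:119267887-119285454, plus strand), stood at 186, 151 and 149, then 182, 183 and 198, against 92.1 and 108, then 112, 112 and 139, in the same order of groups. The Tyrobp-/- libraries again did not overlap the others, and Gaa fell 1.58-fold (log2 -0.66, SE 0.0936, adjusted p = 0.00286).

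Glb1, beta-galactosidase (chr9:114401076-114474898, plus strand), read 183, 161 and 146 CPM in NLGF, 178, 145 and 156 in the Inpp5d-heterozygous group, 103 and 112 in the Tyrobp-null group, and 108, 108 and 142 in the double mutant. The groups were separate by a narrow margin, 142 CPM against 145 CPM. Glb1 fell 1.42-fold (log2 -0.50, SE 0.104, adjusted p = 0.0206), and was called in 13 of 18 alternatives. Naglu, which removes N-acetylglucosamine from heparan sulfate (chr11:101070012-101077672, plus strand), read 594.5, 552 and 537 CPM, then 580.4, 556 and 548, against 419 and 391, then 415, 508 and 433. It did not overlap either and fell 1.30-fold (log2 -0.38, SE 0.0687, adjusted p = 0.0101). Glb1 shares 5.49% of its exon bases with Tmppe on the same strand and Hexa 12.8% with Tmem202 on the other, and reads there cannot be assigned. Hexa was close to level, with a log2 difference of -0.03 (SE 0.0628, adjusted p = 0.851). The fitted log2 differences of the 11 glycosidases ran from -0.77 to 0.09, and 10 of them were below 0.

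The sulfatases, most of which act on glycosaminoglycans, went in both directions. Arsb, arylsulfatase B (chr13:93771630-93943016, plus strand), stood at 336, 246 and 228 CPM in NLGF, 349, 259.2 and 344 in the Inpp5d-heterozygous group, 198 and 169 in the Tyrobp-null group, and 180.4, 214 and 172 in the double mutant. The Tyrobp-/- libraries lay below all others, and Arsb fell 1.58-fold (log2 -0.66, SE 0.127, adjusted p = 0.014). Of its exon bases 7.67% are shared with Gm47210 on the other strand, which also fell (log2 -0.63, adjusted p = 0.0394), and the library kit does not mark strand, so their reads cannot be told apart there. Ids, iduronate 2-sulfatase (chrX:70343069-70365084, minus strand), stood at 80.7, 86.9 and 72.6 CPM, then 77.6, 63.7 and 85.8, against 59.6 and 48.5, then 44.3, 59.8 and 58.9. It fell 1.43-fold without overlap (log2 -0.52, SE 0.118, adjusted p = 0.0319), and was called in 9 of 18 alternatives.

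Sgsh, the heparan N-sulfatase (chr11:119343425-119355536, minus strand), was the one sulfatase that rose. It stood at 8.82, 8.84 and 9.05 CPM in NLGF, 12.9, 10.5 and 6.77 in the Inpp5d-heterozygous group, 28.3 and 26.7 in the Tyrobp-null group, and 25.9, 21.4 and 18.8 in the double mutant. Every Tyrobp-/- library was above every other library. The rise was 2.55-fold (log2 1.35, SE 0.184, adjusted p = 0.00246). Sgsh lies 57971 bases from Gaa on chromosome 11, and the neighbours went in opposite directions. Card14, on the opposite strand, shares 21.6% of the exon bases of Sgsh. It stood at 0 to 3.41 CPM (log2 2.01, SE 0.784, adjusted p = 0.185). Reads in the shared bases cannot be assigned, and their part in the Sgsh rise was not tested. With Naglu, which acts on the same substrate, lower and Sgsh higher, enzymes of heparan sulfate breakdown were called in both directions.

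Of the 4 lipid hydrolases 0 were called by edgeR's quasi-likelihood test and 1 by DESeq2, with no share of all genes given for DESeq2. At an unadjusted p under 0.05 by edgeR, 2 were lower, against 9.09% of all genes tested. Of genes with a mean of at least 5 CPM, 13.5% were lower by that rule. Ppt1, palmitoyl-protein thioesterase (chr4:122836242-122859175, plus strand), had the smallest p. Its libraries read 579.9 to 639.6 CPM with Tyrobp lost and 641.4 to 733 CPM otherwise, without overlap (log2 -0.17, SE 0.0545, adjusted p = 0.106 by edgeR). It was the one lower by DESeq2 (log2 -0.16, adjusted p = 0.0412). Asah1 had a log2 difference of -0.13 (SE 0.052, adjusted p = 0.199). The class median was -0.07, and all 4 fitted values were below 0, from -0.17 to -0.01.

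The peptidases were called in opposite directions. Tpp1, tripeptidyl peptidase (chr7:105744811-105752235, minus strand), stood at 917, 534.5 and 625.5 CPM in NLGF, 896, 823 and 835 in the Inpp5d-heterozygous group, 531 and 527 in the Tyrobp-null group, and 438, 525 and 577 in the double mutant. NLGF replicate 2 lay inside the Tyrobp-/- range. Tpp1 fell 1.49-fold (log2 -0.58, SE 0.137, adjusted p = 0.0373), and was called in 6 of 18 alternatives. Lgmn, legumain (chr12:102394084-102439813, minus strand), stood at 3972, 3650 and 4033 CPM, then 3897, 3795 and 3459, against 4708 and 4516, then 4944, 4552 and 4562. All 5 Tyrobp-/- libraries were above the other 6, and Lgmn rose 1.23-fold (log2 0.30, SE 0.0478, adjusted p = 0.0059). In mean RPKM Lgmn was above every other gene described here in both Tyrobp-/- groups, at 1985 and 2017 RPKM, while in the Inpp5d-heterozygous group it stood at 1600 RPKM against 1835 for Cd68.

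Among activators and cofactors, which help hydrolases reach their substrates or carry lipid, 2 of 4 fell, against 2.91% of all genes tested. Grn, progranulin (chr11:102430315-102437048, plus strand), stood at 5291, 3398 and 3713 CPM in NLGF, 5085, 4476 and 4779 in the Inpp5d-heterozygous group, 3476 and 2957 in the Tyrobp-null group, and 2954, 3042 and 3610 in the double mutant. NLGF replicate 2 overlapped the Tyrobp-/- libraries. The fall was 1.40-fold (log2 -0.48, SE 0.116, adjusted p = 0.0379). Npc2, a soluble carrier that hands cholesterol to the membrane protein NPC1 (chr12:84754562-84773152, minus strand), read 727, 764 and 672 CPM, then 790.5, 735 and 806, against 590 and 638, then 645.5, 546 and 686. Its groups overlapped, and it fell 1.21-fold (log2 -0.28, SE 0.07, adjusted p = 0.0464). Grn was called in 6 and Npc2 in 4 of 18 alternatives.

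Membrane proteins had 3 of 8 members lower and none higher, against 2.91% and 2.45% of all genes tested. Cd68 (chr11:69664213-69666153, minus strand) stood at 2291, 1669 and 1711 CPM in NLGF, 2290, 2193 and 2439 in the Inpp5d-heterozygous group, 1287 and 1232 in the Tyrobp-null group, and 1068, 1161 and 1435 in the double mutant. All 5 Tyrobp-/- libraries were below the other 6, and Cd68 fell 1.70-fold (log2 -0.77, SE 0.111, adjusted p = 0.0032). Mcoln1, the calcium channel TRPML1 of the lysosomal membrane (chr8:3500457-3515232, plus strand), stood at 83.6, 84.1 and 70.3 CPM, then 90.2, 74.0 and 74.9, against 51.8 and 48.6, then 54.6, 56.4 and 59.7. It fell 1.48-fold without overlap (log2 -0.56, SE 0.0907, adjusted p = 0.00574). Cln3, whose loss causes juvenile neuronal ceroid lipofuscinosis (chr7:126571207-126585817, minus strand), stood at 204, 141 and 162 CPM, then 218, 164 and 166, against 134 and 130, then 127, 125 and 129. It fell 1.37-fold (log2 -0.45, SE 0.11, adjusted p = 0.0408), and was called in 5 of 18 alternatives. Cln3 shares 7.65% of its exon bases with Apobr on the other strand (1.56 to 10.1 CPM). The other 5 membrane proteins had log2 differences of -0.28 to 0.09 and were not called.

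Of the 2 sorting receptors 0 were called by edgeR's quasi-likelihood test, 0 by DESeq2 and 0 had an unadjusted p under 0.05. M6pr, the cation-dependent mannose 6-phosphate receptor, stood at 498 to 669 CPM over all libraries, with a log2 difference of -0.03 (SE 0.0884, adjusted p = 0.924). Igf2r, the cation-independent receptor, had 0 counts in 7 of 11 libraries, 3, 93 and 63 counts in the Inpp5d-heterozygous group and 82 counts in double mutant replicate 1. A count of 0 allows up to 0.0477 to 0.1 CPM, depending on the library, and M6pr was the receptor measured at a level in every library.

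**Figure D3:**
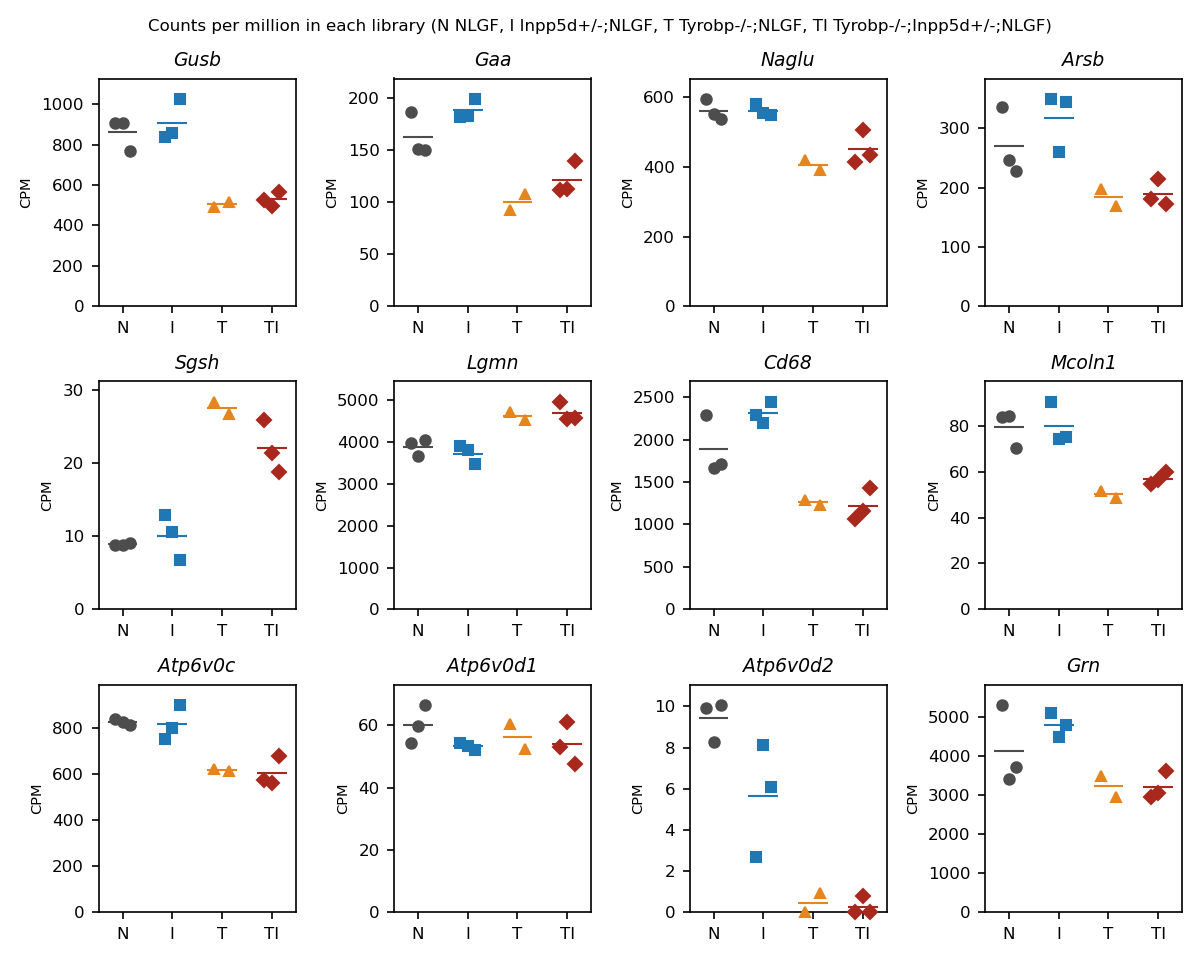
CPM in each library (vertical axis, from 0) for 12 lysosomal genes, with 1 point per library, bars at the group means, and columns N (NLGF), I (Inpp5d-heterozygous), T (Tyrobp-null) and TI (double mutant). Gusb, Gaa, Naglu, Arsb, Cd68, Mcoln1, Atp6v0c and Atp6v0d2 are lower and Sgsh and Lgmn higher in all 5 Tyrobp-/- libraries than in the other 6, whereas Grn overlaps and Atp6v0d1 stays between 47.6 and 66.5 CPM.

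In the proton pump, 2 of 6 V0 genes, 0 of 8 V1 genes and 1 of 2 accessory genes fell by edgeR, and none rose. By that rule 2.91% of all genes tested fell and 2.45% rose. Of genes with a mean of at least 5 CPM 5.18% fell and 3.85% rose. With so few genes per sector, these counts do not set V0 apart from V1. By DESeq2 2 V0, 2 V1 and 1 accessory gene were lower and none higher, with no share of all genes given for DESeq2. At an unadjusted p under 0.05, 2 V1 genes were lower and 1 was higher in edgeR's quasi-likelihood test. The shares were 9.09% lower and 10.3% higher of all genes tested, and 13.5% and 13.2% of genes with a mean of at least 5 CPM. Atp6v0c, the proteolipid of the rotating proton ring (chr17:24163866-24169702, minus strand), stood at 842, 827 and 815 CPM in NLGF, 754, 804 and 901 in the Inpp5d-heterozygous group, 622 and 613 in the Tyrobp-null group, and 574, 561 and 679 in the double mutant. The groups did not overlap, and it fell 1.35-fold (log2 -0.43, SE 0.0663, adjusted p = 0.00456). Atp6v0b, another subunit of that ring, was not called (log2 0.19, SE 0.16, adjusted p = 0.606), and shares 11.8% of its exon bases with the antisense gene Gm12841. Atp6ap1, an accessory glycoprotein of the pump (chrX:74297097-74304721, plus strand), stood at 1165, 1042 and 1237 CPM, then 1151, 1224 and 1164, against 888 and 901, then 1042, 1115 and 916. Its groups overlapped, and it fell 1.21-fold (log2 -0.27, SE 0.068, adjusted p = 0.0435), and was called in 6 of 18 alternatives and in 2 of the 11 with 1 library left out.

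The d subunit of V0, which joins the proton ring to the stalk, is encoded by a widely expressed gene, Atp6v0d1, and by Atp6v0d2, known from osteoclasts and macrophages. Atp6v0d2 (chr4:19876841-19922605, minus strand) stood at 9.92, 8.28 and 10.1 CPM in NLGF, 2.699, 8.14 and 6.11 in the Inpp5d-heterozygous group, 0 and 0.925 in the Tyrobp-null group, and 0.0377, 0.812 and 0 in the double mutant. The groups did not overlap, and the Tyrobp-/- libraries held 0, 50, 2, 51 and 0 counts. Its fitted fall was 19.7-fold (log2 -4.30, SE 1.11, adjusted p = 0.0494), the largest fold among the 17 called genes, but it was called in only 4 of 17 alternatives, with log2 values of -5.48 to -3.94 over them. Atp6v0d1 stood at 47.6 to 61.1 CPM with Tyrobp lost and 52.3 to 66.5 CPM otherwise, with a log2 difference of -0.03 (SE 0.0941, adjusted p = 0.902). Per length, Atp6v0d2 averaged 3.47 RPKM in NLGF against 33.6 RPKM for Atp6v0d1, so the gene that fell was the minor of the d subunits in every group.

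The V1 subunits with the smallest p by edgeR's quasi-likelihood test, neither called, were Atp6v1d (log2 -0.31, SE 0.0885, adjusted p = 0.0735) and Atp6v1a, the catalytic subunit (log2 -0.36, SE 0.115, adjusted p = 0.104). Both passed in 2 of 18 alternatives, with adjusted p of 0.0139 and 0.0288 by DESeq2 and of 0.0482 and 0.0474 with the stricter filter on low counts. Atp6v1g1, the V1 gene with the highest level per length, had a log2 difference of -0.04 (SE 0.0899, adjusted p = 0.87), and Atp6ap2 one of -0.06 (SE 0.0768, adjusted p = 0.784). The 8 V1 values ran from -0.36 to 0.22.

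Tyrobp loss was also compared within each Inpp5d genotype, in pairs of groups that share no library. With both Inpp5d copies, 1 of the 51 genes fell (Gusb, log2 -0.77, SE 0.118, adjusted p = 0.0187) and 1 rose (Sgsh, log2 1.63, SE 0.263, adjusted p = 0.0225), against 0.608% lower and 0.255% higher of all genes tested. With 1 Inpp5d copy, 2 of the 51 fell (Gusb, log2 -0.78, SE 0.104, adjusted p = 0.0106, and Cd68, log2 -0.92, SE 0.139, adjusted p = 0.0178) and 0 rose, against 0.633% and 0.265% of all genes. The median log2 fold change of the 51 genes was -0.23 in the first comparison and -0.18 in the second, against 0.00 and 0.02 for all genes. At an unadjusted p under 0.05, 16 and 18 of them were lower and 3 and 3 higher. Background shares for that rule were 5.99% and 6.26% lower and 6.09% and 7.15% higher. Among genes with a mean of at least 5 CPM they were 9.4% and 9.17% lower and 7.54% and 9.29% higher. At the adjusted threshold, such genes had shares of 1.1% and 1.15% lower and 0.44% and 0.488% higher.

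Both small counts depended on single libraries. With both Inpp5d copies the count of 2 became 0 without NLGF replicate 1 or 2 or either Tyrobp-null replicate, and 1 without NLGF replicate 3. With 1 copy it became 0 without double mutant replicate 1, 1 without its replicate 2 or any Inpp5d-heterozygous replicate, 4 without double mutant replicate 3 and 5 without NLGF replicate 1. With the neutrophil covariate both counts were 0, and without the 2 libraries richest in S100a8 they were 0 and 1. By DESeq2 they were 10 and 13, and with a stricter filter on low counts 5 and 9. The shares of all genes called under these settings are not given here, so these counts stand without a background.

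**Figure D4:**
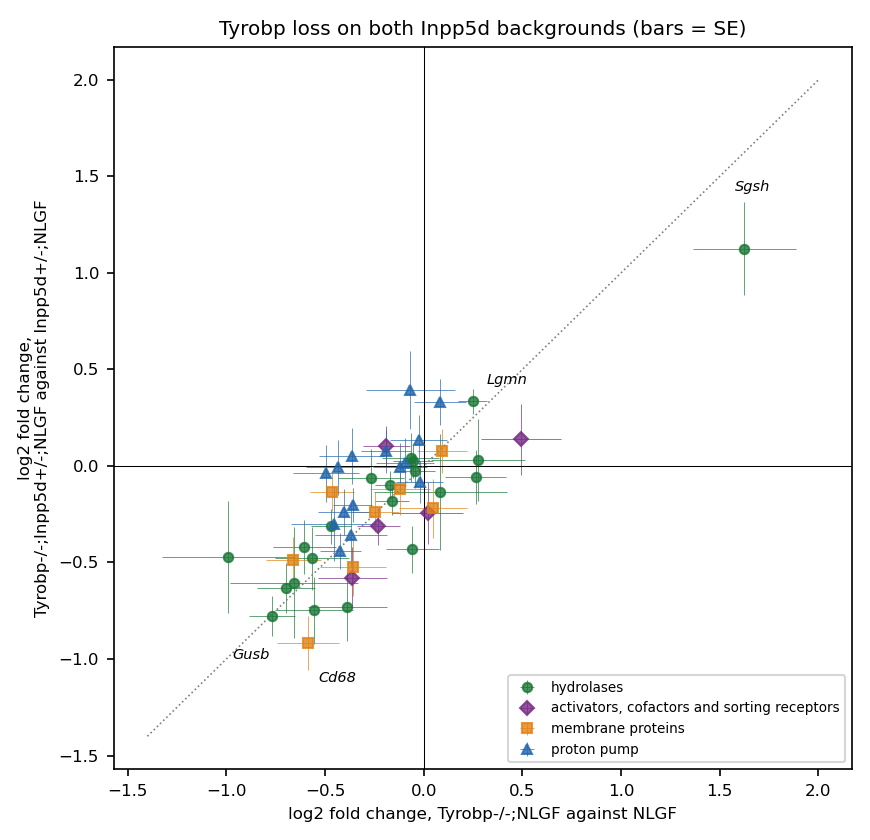
Log2 fold change with Tyrobp loss in mice with both Inpp5d copies (horizontal axis) against that in mice with 1 copy (vertical axis) for 49 lysosomal genes, with SE bars, marker by class and a dotted line of equality. Atp6v0d2 and Igf2r are not drawn. Gusb (-0.77 and -0.78) lies near the line, Sgsh (1.63 and 1.13) below it, and no gene passed the test of the difference between the 2 axes.

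The class medians differed in how they compared between these backgrounds. Hydrolases had medians of -0.17 and -0.18 and membrane proteins of -0.30 and -0.23. Pump subunits had medians of -0.36 with both Inpp5d copies and -0.02 with 1 copy, and the 8 V1 genes of -0.37 and 0.02. The interaction of Tyrobp and Inpp5d, which tests that difference gene by gene, called 0 of the 51 genes in edgeR's quasi-likelihood test, with 0 at an unadjusted p under 0.05 and 0 by DESeq2. The background share was 0% of all genes at the adjusted threshold and 4.7% at the unadjusted one. All 8 V1 interaction values were above 0, from 0.01 to 0.46, as were 10489 of all 20390 genes tested. These 8 genes were read in the same 11 libraries, so they are not 8 separate results. Their median difference from the NLGF mean was -0.155, 0.124 and 0.084 (log2) in NLGF replicates 1, 2 and 3. Atp6v1c1 (log2 0.46, SE 0.222) and Atp6v1b2 (log2 0.43, SE 0.215), singled out after their values were seen, had adjusted p = 1 each.

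**Figure D5:**
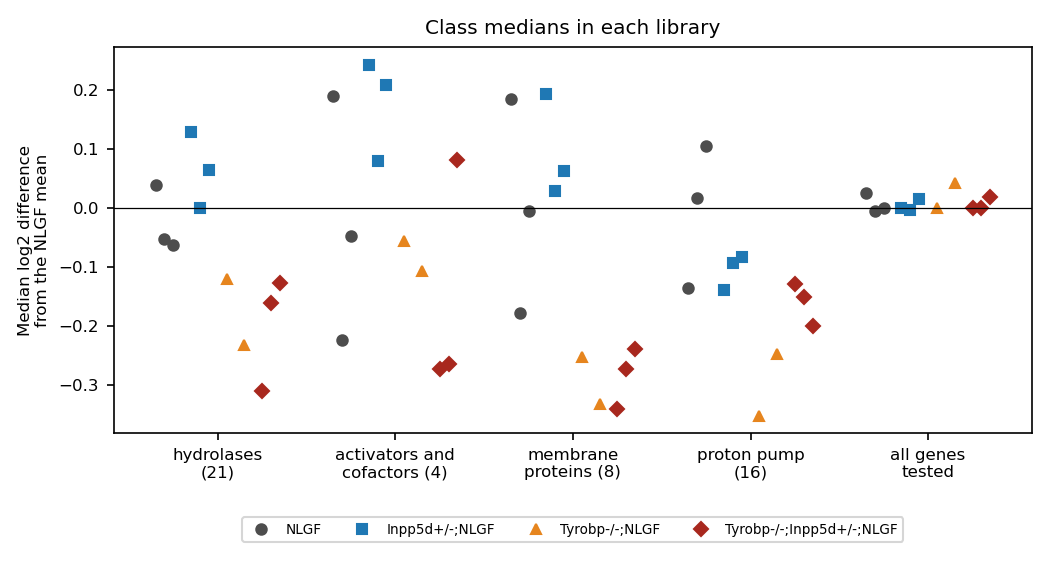
Median log2 difference of each class from the NLGF mean in every library (vertical axis, 1 point per library, shape and colour by genotype, class sizes in brackets). Hydrolase medians are -0.31 to -0.12 in the Tyrobp-/- libraries against -0.06 to 0.13 in the others, membrane proteins -0.34 to -0.24 against -0.18 to 0.19, while pump medians of the Inpp5d-heterozygous group (-0.14 to -0.08) and the double mutant (-0.20 to -0.13) overlap.

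Loss of 1 Inpp5d copy gave no call among the lysosomal genes, whether Tyrobp was present or not. In the Inpp5d-heterozygous group against NLGF, 0 of 51 were called in edgeR's quasi-likelihood test and 0 by DESeq2, against 0% of all genes. At an unadjusted p under 0.05, 1 gene was lower and 1 higher, against 4.66% of all genes. The lower gene was Lamp2, a major glycoprotein of the lysosomal membrane named after its values were seen (log2 -0.24, SE 0.1, adjusted p = 0.952). The higher gene was Igf2r, whose NLGF libraries were all at 0, against 3, 93 and 63 counts in the Inpp5d-heterozygous group. Without the libraries of that group Igf2r would not have passed the filter on low counts. Its unadjusted p is thus no evidence of a difference. All 8 V1 genes had fitted values below 0 (median -0.17), as had 10084 of all 20390 genes tested. None of the 8 passed an unadjusted p of 0.05. Cd68 was 1.22-fold higher on average without passing the test (log2 0.29, SE 0.138, adjusted p = 0.952). In the double mutant against the Tyrobp-null group, 0 of 51 were called by edgeR and 0 by DESeq2, against 0.00981% of all genes by edgeR, and 0 had an unadjusted p under 0.05, against 4.08% of all genes. The median log2 difference was 0.01 in the first comparison and 0.07 in the second.

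Lysosomal genes outside the 51 were also called with Tyrobp loss. Of 40 further genes listed (transporters, channels, further enzymes and other pump isoforms), 36 were tested. In the additive model 8 of the 36 fell and 0 rose, against 2.91% and 2.45% of all genes tested. At an unadjusted p under 0.05, 16 were lower and 3 higher, against 9.09% and 10.3% of all genes. Of genes with a mean of at least 5 CPM, 13.5% were lower and 13.2% higher by that rule. Cd63, a tetraspanin of late endosomes and lysosomes, fell most clearly, from 1627 to 1969 CPM to 928 to 1190 CPM (log2 -0.78, SE 0.0757, adjusted p = 0.000327). Slc11a1, the metal transporter NRAMP1, fell from 868 to 1065 CPM to 513 to 660 CPM (log2 -0.75, SE 0.0751, adjusted p = 0.000397). Dpp7 (log2 -0.74), Clcn7 (-0.66), Scpep1 (-0.58) and Pld3 (-0.51) followed with adjusted p values of 0.00295 to 0.00964. Clcn7 encodes the chloride-proton exchanger of the lysosomal membrane. Tcirg1, a V0 subunit gene named after its values were seen, also fell (log2 -0.54, SE 0.127, adjusted p = 0.0356). Its log2 difference was -0.90 (SE 0.125) with both Inpp5d copies and -0.26 (SE 0.109) with 1 copy. Its interaction (log2 0.65, SE 0.164) had an unadjusted p of 0.0029 by edgeR and did not pass the adjusted threshold. At an unadjusted p under 0.05, 3 of the 36 interaction values were higher and 1 lower, against 4.7% of all genes. The cathepsin genes Ctsb (log2 -0.61, SE 0.0666), Ctsl (log2 -0.70, SE 0.0576) and Ctsd (log2 -0.35, SE 0.0466) also fell, with adjusted p values of 0.000732, 0.00016 and 0.00213.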

How the data were processed

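RNA-seq of microglia sorted by flow cytometry was analysed in 11 libraries of 4 genotypes, made with the SMART-Seq v4 kit, which keeps no strand information. The builds GRCm38.p6 and mm10 and the tools featureCounts 1.6.4 and STAR 2.7.3a are named in the submitters' processing notes. Raw counts per gene were deposited by the authors, with no normalization, and the exon length of each gene. For annotation release, strand setting and multiply mapped reads, the choice made was not given in the sources used here. Groups follow the genotype labels. Replicates are numbered in sample order and pair nothing. No label ties a library to an animal or litter. The p-values therefore reflect only how much these libraries vary, which may be technical.

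The filter filterByExpr (minimum count 10, minimum total 15) left 20390 genes. Libraries were scaled by TMM, and edgeR 4.0.16 in R 4.3.3 fitted 1 coefficient per group, plus an additive model of Tyrobp and Inpp5d genotype, over all 11 libraries. Adjusted p is the Benjamini-Hochberg value over all genes tested (threshold 0.05), and a gene that passes is called. SE was taken from the quasi-likelihood statistic. RPKM is the scaled CPM divided by exon length. A floor of 3 counts is 0.0477 to 0.1 CPM and covers counting error only. The code was tested on simulated data. No libraries held identical values.

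The members and gene lists were chosen with earlier results of these data known. Named genes are those called in any comparison, the 2 with the smallest p and the 1 with the highest RPKM in each class, and Atp6v0d1. Of other lysosomal genes, up to 6 called genes by smallest p were named, with Ctsb, Ctsd, Ctsl, Tyrobp, Inpp5d, S100a8 and Snap25. Tcirg1 was added after its values were seen. The alternatives tried were scaling by RLE or upper quartile, leaving out the filter, a stricter filter (1 CPM in 3 libraries and a mean of 5 CPM), DESeq2 1.42.0, the compared groups alone, a neutrophil covariate, and libraries left out. Markers of neurons (7, Snap25 at 0 to 8.04 CPM), astrocytes, oligodendrocytes, endothelial cells and border macrophages summed to 0.277 to 18.5, 177 to 272, 164 to 206, 7.69 to 35.3 and 3.5 to 125 CPM.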

Additional observations from a re-analysis of the deposited data

How the results depend on the processing

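No called result reversed under any alternative run. Depth limits what a count of 0 can show, to 0.0477 to 0.1 CPM depending on the library. The 17 genes called in the additive model became 16 with RLE or upper-quartile scaling, 11 with no filter, 19 with a stricter filter, 24 by DESeq2, 0 with the neutrophil covariate, 6 when the 2 libraries highest in S100a8 were dropped, and 9 to 15 with 1 library left out. The 2 genes called in Tyrobp-/-;NLGF against NLGF became 5 with the stricter filter, 10 by DESeq2, 1 with the compared groups alone, 0 with the covariate, 0 without the 2 libraries and 0 to 2 with 1 left out. The 2 called in Tyrobp-/-;Inpp5d+/-;NLGF against Inpp5d+/-;NLGF became 9, 13, 2, 0, 1 and 0 to 5 under the same settings. In the Inpp5d comparisons and the interaction the count was 0 under every setting run. The share of all genes called under the alternatives is not given, so the counts under them stand without a background. The stricter filter tests fewer genes, and leaving libraries out leaves fewer samples. Why the counts changed was not tested for any setting. Where 1 Tyrobp-/-;NLGF library remains, it is assumed to vary like the other groups. No paired analysis was possible because the labels give no replicate number and the numbers used only name libraries.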
